A study of Mus musculus with 12 samples.

Results

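The mitosis genes described here are 36 genes whose products carry a cell through mitosis, from the cyclin kinase that starts it to the proteins that cut the cell at its end. They were chosen by symbol for the role of their product, with no measured value in the rule but with earlier results of these data known. All 36 were found among the 24318 genes of the table. Polyadenylated RNA was sequenced in 12 libraries of immortalized mouse embryonic fibroblasts (MEFs) in which the genes for the 3 small Maf proteins are deleted (MafF-/-::MafG-/-::MafK-/-). Small Mafs are the partners that transcription factors such as Nrf2 need to bind DNA, and all 4 groups carry the deletions. Mock cells served as the control, and T-N2G cells express a tethered Nrf2-MafG heterodimer, an Nrf2 joined to a MafG. Each population was given vehicle or 100 µM diethyl maleate (DEM), a compound that binds glutathione and activates Nrf2, for 12 h, which makes 4 groups of 3 libraries. The labels do not say whether the replicates were separate cultures, how T-N2G was introduced, or whether either population is 1 clone, so p-values measure the spread between these libraries only, which may be technical.

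Mitosis begins when cyclin B and Cdk1 form an active kinase, which Cdc25 phosphatases switch on. Chromosomes are then condensed, kinetochores assembled on their centromeres attach to spindle microtubules, and a checkpoint holds back the anaphase promoting complex until every kinetochore is attached. Most of the genes involved are transcribed late in the cell cycle, when the DREAM complex gives way to B-Myb and FoxM1 at promoters that carry a CHR element (cell cycle genes homology region) and, often, CCAAT boxes bound by NF-Y. In a culture that is not synchronized, the level of such an mRNA depends both on the share of cells in or near mitosis and on the RNA in each of those cells. Fewer cells in mitosis and less RNA per cell cannot be told apart in these bulk libraries.

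Promoters of 4 members are shown because their windows hold the letters searched for as CHR elements and CCAAT boxes, or lack them. They are from RefSeq (GRCm38.p6) and run from 120 bases before the annotated start to 15 bases after it, 5′ to 3′ on the gene's strand. Capitals mark the letters TTTGAA or TTCGAA (the CHR letters) and CCAAT, on either strand, so that TTCAAA and ATTGG are the same letters read on the other strand. The promoters of Ccnb2 (chr9:70421540-70421674, minus strand), Cdc20 (chr4:118437329-118437463, minus strand), Top2a (chr11:99024175-99024309, minus strand) and Nuf2 (chr1:169531450-169531584, minus strand) read as follows.
Ccnb2: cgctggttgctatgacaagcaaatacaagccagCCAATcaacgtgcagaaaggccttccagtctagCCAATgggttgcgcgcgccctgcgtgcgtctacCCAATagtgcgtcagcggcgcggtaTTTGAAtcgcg
Cdc20: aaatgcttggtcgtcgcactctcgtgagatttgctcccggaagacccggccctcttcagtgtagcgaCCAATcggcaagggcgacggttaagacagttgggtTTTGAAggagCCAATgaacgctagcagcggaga
Top2a: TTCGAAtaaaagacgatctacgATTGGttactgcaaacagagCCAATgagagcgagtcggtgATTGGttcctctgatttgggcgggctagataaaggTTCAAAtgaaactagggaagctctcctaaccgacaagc
Nuf2: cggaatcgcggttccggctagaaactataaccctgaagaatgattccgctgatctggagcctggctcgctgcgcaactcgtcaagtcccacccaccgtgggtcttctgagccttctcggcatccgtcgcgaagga
In Ccnb2 a TTTGAA lies 5 to 10 bases after the start and 3 CCAAT boxes lie upstream of it. Cdc20 has 2 CCAAT boxes, one on each side of its TTTGAA. The Top2a window holds both kinds of letters on both strands, and the Nuf2 window holds neither.

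A promoter sequence was matched to 29 of the 36 members, and Kif20a, Ccna2, Incenp, Cdc25c, Tpx2, Spc24 and Aurkb are named only. In the window from 250 bases before to 50 after the start, 23 of the 29 (79.3%) held the CHR letters, 22 (75.9%) held CCAAT and 20 (69.0%) held both. Over the promoters of 27025 genes the shares were 21.7%, 41.1% and 8.61%. Among 58 promoters of other mitosis genes they were 63.8%, 70.7% and 48.3%, and among 37 promoters of DNA replication and G1/S genes 21.6%, 62.2% and 13.5%. The 6 members without the CHR letters were Ccnb1, Mad2l1, Cenpe, Nuf2, Birc5 and Nusap1. A match of letters is a description of the window and shows no binding. A missing match does not show that the promoter lacks such an element, since other letters and other start sites were not searched.

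All 36 members were expressed well above the filter on low counts, and all 36 passed it. Their lowest value in any library was 474 fragments, for Cdc25c, against library totals of 18863560 to 23095692 fragments. On the FPKM scale, which is per transcript length and so can be compared between genes, Birc5 had the highest mean over the 12 libraries (156), followed by Ccna2 (113) and Top2a (110), and Cdc25c had the lowest (15.2). From library to library the members varied little. The standard deviation over the 12 libraries was 3.26% of the mean for Bub1 and 13.1% for Cdc25b, the ends of the range. The ratio of the highest to the lowest library was 1.12 for Bub1 and 1.53 for Cdc25b, in CPM, counts scaled to a common library size. Summed over members, the level was 4979 CPM in mock DEM replicate 2, the lowest library, and 5612 in T-N2G vehicle replicate 3, the highest.

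The 2 genes joined in T-N2G were high in the libraries so labelled. In T-N2G cells the level of Mafg was above that of mock cells 264-fold with vehicle and 138-fold with DEM, and that of Nfe2l2, the gene for Nrf2, 11.3-fold and 8.90-fold. In mock cells Mafg was at 0.472 to 0.550 CPM with vehicle and 0.820 to 0.932 with DEM. The other 2 deleted genes were listed above 0 in every library, Maff at 65 to 123 fragments and Mafk at 30 to 58, and neither was called between T-N2G and mock cells (log2 changes of -0.11 and 0.00 for Maff, -0.33 and -0.10 for Mafk). Which part of each gene was deleted is not given in the sources used here, so these counts do not check the deletions. All 9 fibroblast markers had a mean above 1 FPKM, with summed levels of 4120 to 4569 FPKM in mock vehicle, 3904 to 4400 in mock DEM, 3936 to 4609 in T-N2G vehicle and 3299 to 3826 in T-N2G DEM. Summed markers of epithelial, endothelial, blood and skeletal muscle cells reached at most 0.541, 3.04, 2.52 and 0.508 FPKM, with Adgre1 and Cd3e listed at 0. The 4 Y-linked genes summed to 3.45 to 5.17 FPKM in mock and 6.37 to 7.84 in T-N2G libraries, and Ddx3y alone was 1.62-fold higher in T-N2G cells with vehicle and 1.79-fold higher with DEM (edgeR adjusted p = 0.0154 and 0.000612). The part of this in the comparisons of T-N2G with mock cells was not tested. Library codes of replicates 1 and 2 form one series and those of replicate 3 another.

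The mitosis genes were at nearly the same level in all 4 groups. In each of the 5 comparisons tested (T-N2G against mock under each treatment, DEM against vehicle for each population, and the gap between the 2 DEM effects), the 95% interval of every member lay within a 1.5-fold change in either direction. The lowest end of any DEM interval was 0.730-fold (Spc24 in mock cells) and the highest 1.43-fold (Cdc25b in T-N2G cells). Fitted changes of single members lay between -0.29 and 0.30 on the log2 scale. A change was called at an adjusted p under 0.05 in edgeR's quasi-likelihood test, adjusted by Benjamini-Hochberg over all 12469 genes tested. Libraries with the same replicate number deviated together, so counts are also given with the replicate number as a block, which left less spread (a biological coefficient of variation of 0.0428, against 0.110 without it).

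**Figure D1:**
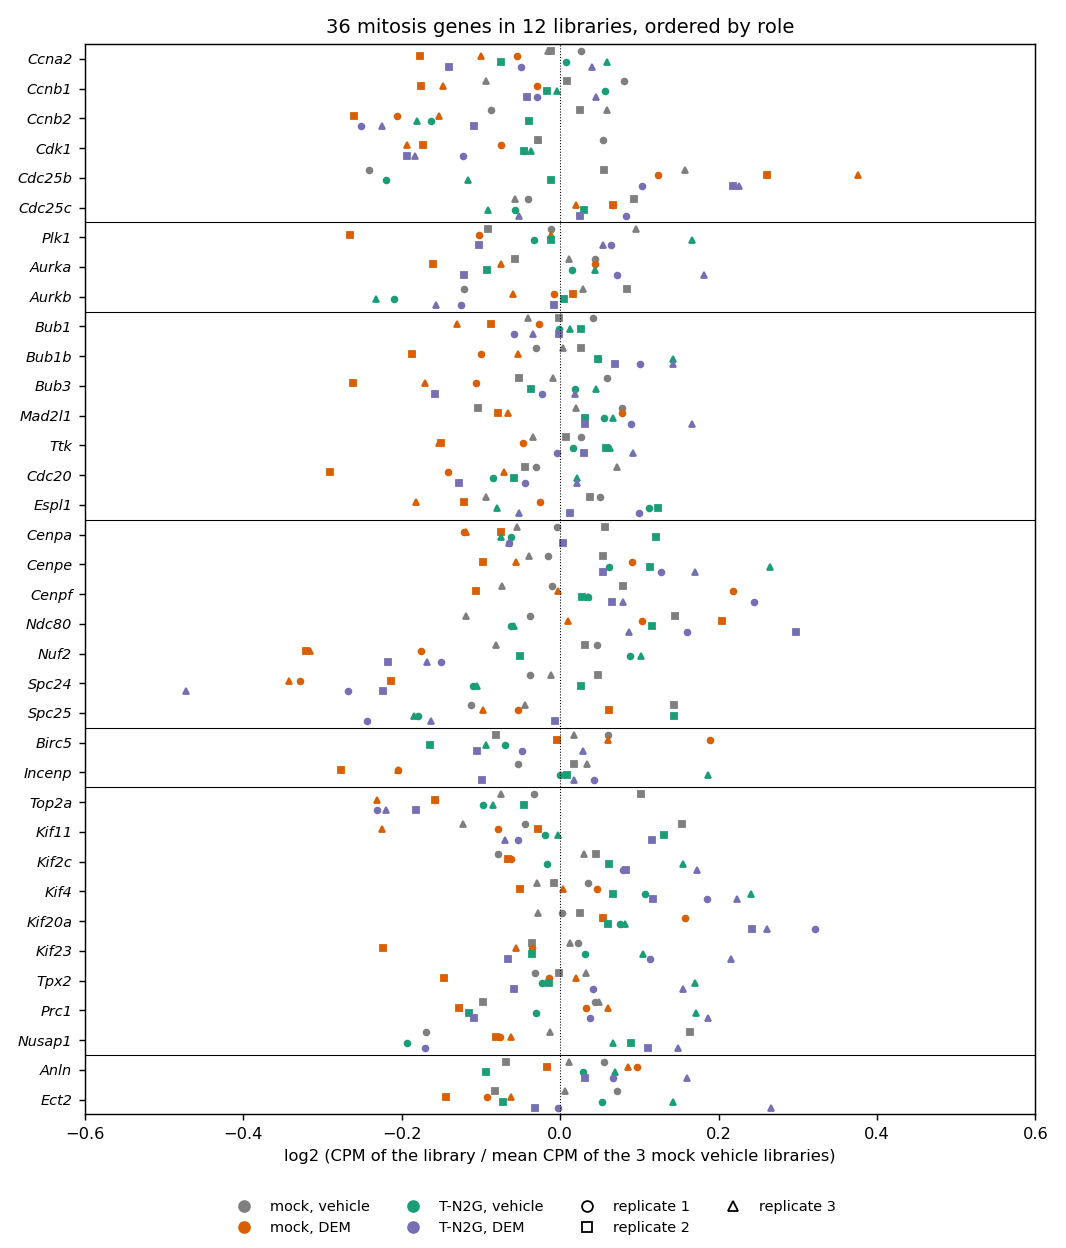
Each point is 1 library, placed by the log2 ratio of its CPM to the mean of the 3 mock vehicle libraries (x axis) for each of the 36 members (y axis, grouped by role and separated by lines), with colour for the group and shape for the replicate number. Every point lies within 0.6 of 0, and the orange points of mock DEM lie to the left of 0 for most members, those of replicate 2 farthest in many rows.

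In mock cells most members had slightly lower values with DEM. Of the 36 members 3 fell, Nuf2, Spc24 and Incenp, and none rose (8.33% and 0%), beside 6.18% of all tested genes lower and 7.76% higher, so the share that fell was near that of all genes. With the replicate block 14 fell (38.9%) and 1 rose, beside 21.9% lower and 20.9% higher of all genes. In 13 members every DEM library was below every vehicle library (36.1%, beside 16.3% of all genes), and in 1 member, Kif20a, every DEM library was above (2.78%, beside 17.2%). The median change over members was -0.09 on the log2 scale and over all genes -0.01, with 29 members below 0 and 7 above. Summed over members, the level was 5406, 5439 and 5354 CPM in mock vehicle replicates 1 to 3, and 5327, 4979 and 5156 in mock DEM, without overlap. As a plain share of each library's fragments the members took 0.530%, 0.559% and 0.540% in mock vehicle and 0.530%, 0.509% and 0.517% in mock DEM, so that the 2 libraries of replicate 1 had the same share to 3 digits.

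In T-N2G cells no common direction was seen. Nuf2 and Spc24 fell and Kif20a rose (5.56% and 2.78% of members), beside 7.55% of all tested genes lower and 10.1% higher. With the replicate block 4 fell and 3 rose, 11.1% and 8.33%, beside 22.2% and 22.8% of all genes. The groups did not overlap in 5 members that were lower (13.9%, beside 15.6% of all genes) and 3 that were higher (8.33%, beside 18.2%). The median change was 0.00 over members and over all genes, with 18 members on each side. The plain share of fragments was 0.526%, 0.546% and 0.552% in T-N2G vehicle and 0.534%, 0.536% and 0.551% in T-N2G DEM, which overlap.

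**Figure D2:**
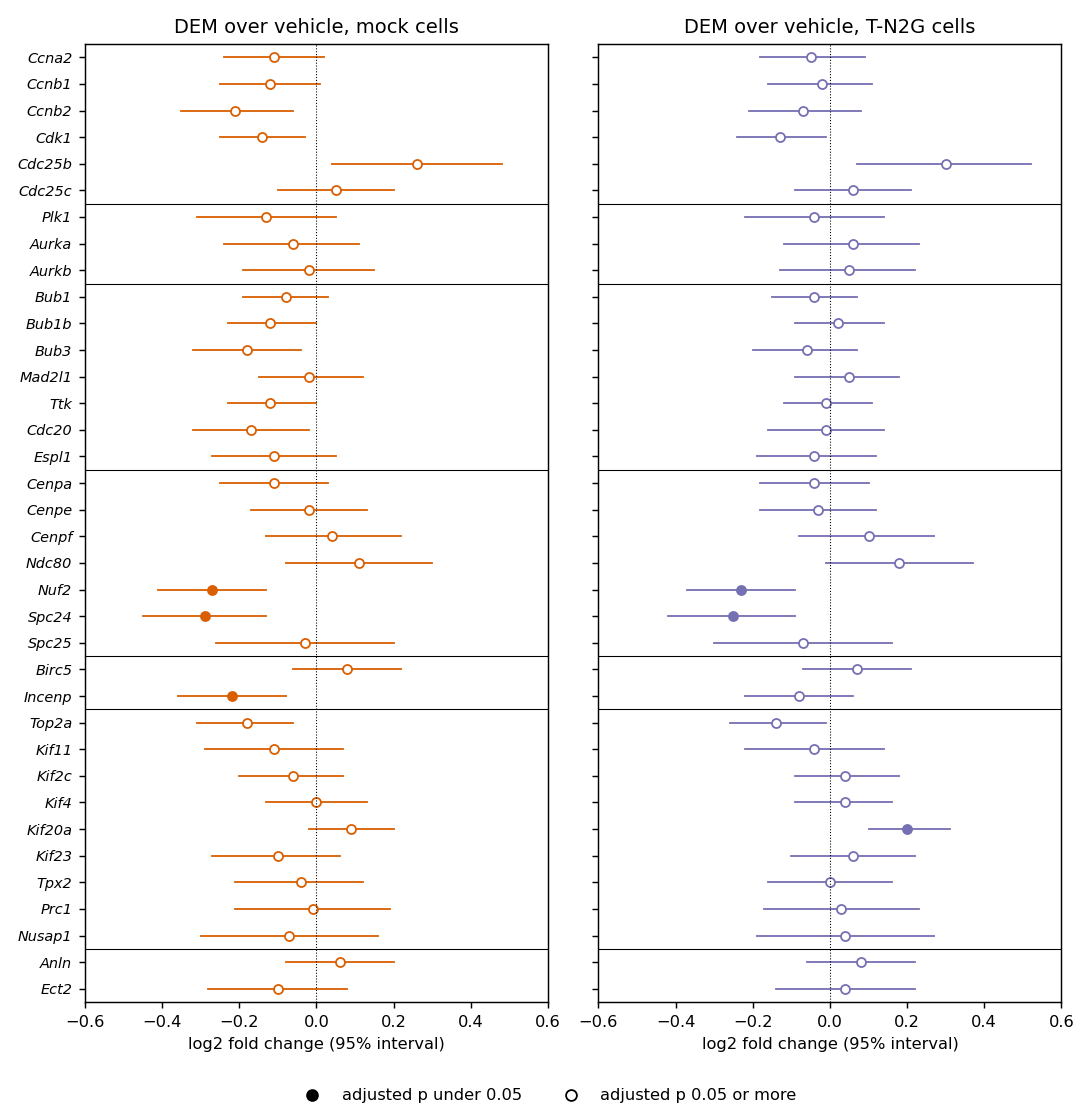
Points give the log2 fold change of DEM over vehicle and bars its 95% interval (x axis) for each member (y axis, grouped by role), in mock cells at left and T-N2G cells at right, with filled points for an adjusted p under 0.05. Nuf2 and Spc24 are filled and lie left of 0 in both panels, Incenp is filled at left only and Kif20a at right only.

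The kinetochore genes held the largest decreases and showed the members of 1 complex at different values. The Ndc80 complex, made of Ndc80, Nuf2, Spc24 and Spc25, is the link between kinetochore and microtubule, with Ndc80 and Nuf2 at the microtubule end and Spc24 and Spc25 at the centromere end. Nuf2 was at 102, 101 and 93.4 CPM in mock vehicle replicates 1 to 3 and at 87.5, 79.1 and 79.4 in mock DEM. In T-N2G cells it was at 105, 95.4 and 106 in vehicle and 89.0, 85.0 and 87.9 in DEM. All DEM libraries were thus below all vehicle libraries of their population. Nuf2 fell by 0.27 ± 0.06 on the log2 scale in mock cells (standard error, n = 3 against 3, 1.20-fold, edgeR adjusted p = 0.0197). In T-N2G cells it fell by 0.23 ± 0.06 (1.17-fold, edgeR adjusted p = 0.0312).

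Spc24 was at 48.8, 51.8 and 49.7 CPM in mock cells with vehicle, against 39.9, 43.2 and 39.5 in mock DEM. It was at 46.4, 51.0 and 46.6 in T-N2G vehicle and 41.6, 42.9 and 36.1 in T-N2G DEM. Again no DEM library reached a vehicle library of its population, and replicate 3 of T-N2G DEM was the lowest of the 12. Spc24 fell by 0.29 ± 0.07 in mock cells (1.22-fold, edgeR adjusted p = 0.0241) and by 0.25 ± 0.07 in T-N2G cells (1.19-fold, edgeR adjusted p = 0.0356). The decreases did not differ detectably between the populations. The difference of the DEM effects was 0.04 for both genes, with a 95% interval of -0.16 to 0.24 for Nuf2 and -0.19 to 0.27 for Spc24.

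Ndc80 and Spc25, described because they belong to the same complex and chosen after their values were seen, did not pass the test. Ndc80 was at 49.6, 56.3 and 46.9 CPM in mock cells with vehicle, 54.7, 58.7 and 51.3 in mock DEM, 48.8, 55.2 and 48.9 in T-N2G vehicle and 56.9, 62.6 and 54.1 in T-N2G DEM. Its changes with DEM were above 0, 0.11 ± 0.09 in mock cells (adjusted p = 0.45) and 0.18 ± 0.09 in T-N2G cells (adjusted p = 0.178, and 0.00343 with the replicate block, both from edgeR). Spc25 ranged from 28.8 to 34.4 CPM in mock cells with vehicle, 29.1 to 32.5 in mock DEM, 27.4 to 34.4 in T-N2G vehicle and 26.3 to 31.0 in T-N2G DEM. Its groups overlapped, with changes of -0.03 and -0.07 and standard errors of 0.10 and 0.11. The difference between subunits was not itself tested.

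**Figure D3:**
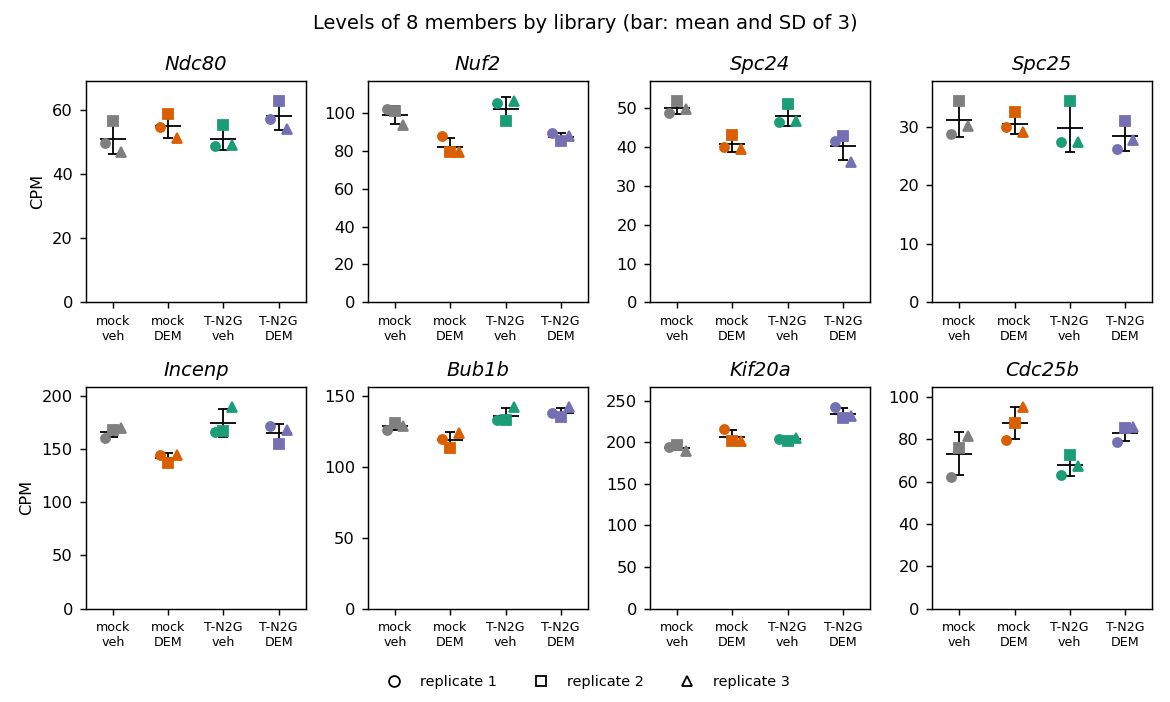
CPM (y axis, from 0) of 8 members in the 12 libraries by group (x axis), with shape for the replicate number and the horizontal mark and bars for the mean and SD of 3 libraries. Nuf2 and Spc24 are lower in both DEM groups, Ndc80 is not, Incenp is lowest in mock DEM at 137 to 144 CPM, and Kif20a is highest in T-N2G DEM at 229 to 242 CPM.

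Of the other kinetochore members, Cenpa, the histone H3 variant that marks the centromere, had the highest FPKM. It was at 58.6, 61.1 and 56.6 CPM in mock cells with vehicle, 54.0, 55.8 and 54.1 in mock DEM, 56.3, 63.9 and 55.8 in T-N2G vehicle and 56.2, 58.9 and 56.2 in T-N2G DEM. The mock DEM libraries were below all mock vehicle and all T-N2G DEM libraries, but no comparison of Cenpa passed the test, with changes of -0.11 to 0.07. Cenpe, a kinetochore motor that moves chromosomes to the middle of the spindle, was at 182, 191 and 179 CPM in mock cells with vehicle, 196, 172 and 177 in mock DEM, 192, 199 and 221 in T-N2G vehicle and 201, 191 and 207 in T-N2G DEM. Its change with T-N2G in vehicle was 0.15 ± 0.07 (edgeR adjusted p = 0.778). Cenpf, a large kinetochore protein, ranged from 174 to 222 CPM over the 12 libraries.

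Incenp is the scaffold that holds Aurora B in the chromosomal passenger complex, and Birc5 (survivin) is another subunit of it. Incenp was at 160, 168 and 170 CPM in mock cells with vehicle, against 144, 137 and 144 in mock DEM. It was at 166, 167 and 189 in T-N2G vehicle and 171, 155 and 168 in T-N2G DEM. The mock DEM libraries were the 3 lowest of all 12. Incenp fell by 0.22 ± 0.06 in mock cells (1.17-fold, edgeR adjusted p = 0.0377), and its change in T-N2G cells was -0.08 ± 0.06 (edgeR adjusted p = 0.411). The difference of these effects was 0.14 (95% interval -0.05 to 0.34, adjusted p = 1 in edgeR). Thus the call in 1 population and not in the other was not shown to be a difference between them.

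Birc5 was at 139, 126 and 135 CPM in mock cells with vehicle, 152, 133 and 139 in mock DEM, 127, 119 and 125 in T-N2G vehicle and 129, 124 and 136 in T-N2G DEM. Its groups overlapped and its changes with DEM were 0.08 and 0.07, each with a standard error of 0.06. Aurkb, the gene of the Aurora B kinase itself, was at 60.2, 69.4 and 66.8 CPM in mock cells with vehicle, against 65.1, 66.2 and 62.8 in mock DEM. In T-N2G cells it was at 56.6, 65.7 and 55.7 in vehicle and 60.0, 65.1 and 58.7 in DEM. None of the 5 comparisons of Aurkb or Birc5 passed the test without the block, and Birc5 in T-N2G against mock cells under DEM did so with it (-0.12, adjusted p = 0.0435, edgeR).

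Among the spindle motors and bundling proteins, Kif20a rose with DEM. Its product is a kinesin of the central spindle that brings Polo-like kinase and passenger proteins to the cleavage site. Kif20a was at 194, 197 and 190 CPM in mock cells with vehicle, 216, 201 and 201 in mock DEM, 204, 202 and 205 in T-N2G vehicle and 242, 229 and 232 in T-N2G DEM. The T-N2G DEM libraries were the 3 highest of the 12, and in both populations every DEM library was above every vehicle library. Kif20a rose by 0.20 ± 0.05 in T-N2G cells (1.15-fold, edgeR adjusted p = 0.0153), while its change in mock cells was 0.09 ± 0.05 (edgeR adjusted p = 0.249). The difference of the effects was 0.11 (95% interval -0.04 to 0.26, adjusted p = 1 in edgeR). In the GENCODE vM21 annotation (GRCm38) 31.8% of the exon bases of Kif20a overlap Cdc23 on the opposite strand, and the strand setting of the counting is not given in the sources used here. Cdc23, at a mean of 139 CPM, changed by -0.12 in T-N2G cells and -0.20 in mock cells (edgeR adjusted p = 0.167 and 0.0372). The part of overlapping reads in the Kif20a values was not tested. Exons of 7 more members overlap a gene on the other strand, Prc1 over 21.8% of its exon bases, Kif4 over 15.1%, Ccna2 over 10.4%, and Plk1, Nusap1, Cdc20 and Cdc25b over 2.93% to 7.09%.

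Top2a encodes the topoisomerase that untangles sister chromatids. It was at 592, 650 and 575 CPM in mock cells with vehicle, against 543, 543 and 516 in mock DEM, without overlap, and at 566, 587 and 571 in T-N2G vehicle and 516, 534 and 520 in T-N2G DEM, again without overlap. The changes were -0.18 ± 0.06 and -0.14 ± 0.06 (edgeR adjusted p = 0.057 and 0.132, and 0.00126 and 0.00913 with the replicate block). Kif4, a motor of the chromosome arms and central spindle, was at 137, 133 and 131 CPM in mock cells with vehicle, 138, 129 and 134 in mock DEM, 144, 140 and 158 in T-N2G vehicle and 152, 145 and 156 in T-N2G DEM. T-N2G cells were above mock cells in vehicle by 0.14 ± 0.06 (edgeR adjusted p = 0.729). Kif11, Kif2c, Kif23, Tpx2, Prc1 and Nusap1, the other motors and microtubule binders, gave DEM changes of -0.11 to -0.01 in mock cells and -0.04 to 0.06 in T-N2G cells, and none passed the test without the block. The table marks the Prc1 value of T-N2G vehicle replicate 2 as a failed estimate, and it was kept.

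None of the 6 genes of the cyclin kinase and its phosphatases passed the test with DEM, with an unadjusted p under 0.05 in edgeR for 3 in mock and 2 in T-N2G cells. With the block 4 fell and 1 rose in mock cells (66.7% and 16.7%, beside 21.9% and 20.9% of all genes). In T-N2G cells 1 fell and 1 rose with the block (16.7% each, below the 22.2% and 22.8% of all genes). Ccna2 encodes cyclin A, which acts before mitosis and into its start. It was at 311, 303 and 302 CPM in mock cells with vehicle, 294, 270 and 285 in mock DEM, 307, 290 and 318 in T-N2G vehicle and 295, 277 and 314 in T-N2G DEM. Its change with DEM in mock cells was -0.11 ± 0.06 (edgeR adjusted p = 0.255, and 0.0353 with the block). Ccnb2, the gene of cyclin B2, was at 85.6, 92.5 and 94.7 CPM in mock cells with vehicle, 78.8, 75.9 and 81.8 in mock DEM, 81.2, 88.5 and 80.2 in T-N2G vehicle and 76.4, 84.3 and 77.8 in T-N2G DEM. The mock DEM libraries were below all mock vehicle libraries, with a change of -0.21 ± 0.07 (edgeR adjusted p = 0.0572, and 0.0035 with the block). Ccnb1 ranged from 103 to 123 CPM and Cdk1, the kinase itself, from 139 to 165 over all libraries.

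Of the Cdc25 phosphatases, Cdc25b had values above vehicle with DEM, described here after its values were seen. It was at 62.0, 76.1 and 81.7 CPM in mock cells with vehicle, against 79.8, 87.8 and 95.1 in mock DEM, which overlap. In T-N2G cells it was at 62.9, 72.7 and 67.6 in vehicle and 78.7, 85.2 and 85.7 in DEM, which do not. It was the most variable member, and within each replicate number DEM was above vehicle in 3 of 3 pairs in both populations. The changes were 0.26 ± 0.10 and 0.30 ± 0.10 (edgeR adjusted p = 0.111 and 0.0651, and 0.000936 and 0.000281 with the block). Cdc25c ranged from 24.9 to 28.3 CPM.

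Plk1, the Polo-like kinase that acts at centrosomes, kinetochores and the cleavage site, was at 130, 123 and 140 CPM in mock cells with vehicle, 122, 109 and 130 in mock DEM, 128, 130 and 147 in T-N2G vehicle and 137, 122 and 136 in T-N2G DEM. The groups overlapped. Its change with DEM in mock cells was -0.13 ± 0.08 (edgeR adjusted p = 0.335, and 0.0254 with the block). Aurka, the Aurora kinase of the spindle poles, gave changes of -0.06 and 0.06 with DEM in mock and T-N2G cells.

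Spindle checkpoint genes all had a fitted DEM change below 0 in mock cells, and none passed the test without the block. The 7 genes of the checkpoint and of anaphase (Bub1, Bub1b, Bub3, Mad2l1, Ttk, Cdc20 and Espl1) gave a median of -0.12 in mock cells and -0.01 in T-N2G cells. With the block 4 of the 7 fell in mock cells (57.1%, beside 21.9% of all genes), Bub1b, Bub3, Cdc20 and Espl1. Cdc20, the activator of the anaphase promoting complex, was at 108, 107 and 116 CPM in mock cells with vehicle, 100, 90.2 and 105 in mock DEM, 104, 106 and 112 in T-N2G vehicle and 107, 101 and 112 in T-N2G DEM. The mock groups did not overlap and the T-N2G groups did. The change in mock cells was -0.17 ± 0.07 (edgeR adjusted p = 0.114, and 0.00315 with the block), and the difference of the DEM effects was 0.16 (95% interval -0.05 to 0.37, edgeR adjusted p = 1). Mad2l1, the checkpoint protein that holds Cdc20, was at 127, 112 and 122 CPM in mock cells with vehicle, 127, 114 and 115 in mock DEM, 125, 123 and 126 in T-N2G vehicle and 128, 123 and 135 in T-N2G DEM, with overlapping groups.

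Bub1b, the gene of the checkpoint kinase BubR1, was the 1 member called between T-N2G and mock cells with DEM. It was at 126, 131 and 129 CPM in mock cells with vehicle, 120, 113 and 124 in mock DEM, 133, 133 and 142 in T-N2G vehicle and 138, 135 and 142 in T-N2G DEM. Every T-N2G library was above every mock library, in vehicle and in DEM. In DEM it was higher by 0.22 ± 0.05 (1.16-fold, edgeR adjusted p = 0.0437). The difference of the DEM effects was 0.14 (95% interval -0.02 to 0.31, edgeR adjusted p = 1).

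At the cleavage furrow, Anln (anillin, the scaffold of the contractile ring) was at 501, 460 and 486 CPM in mock cells with vehicle, 516, 477 and 512 in mock DEM, 492, 452 and 506 in T-N2G vehicle and 505, 493 and 539 in T-N2G DEM. The groups overlapped, with changes of 0.00 to 0.08. Ect2, which activates RhoA at the furrow, ranged from 137 to 182 CPM, and its DEM changes were -0.10 and 0.04.

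With vehicle no mitosis gene was called between T-N2G and mock cells (0 of 36), beside 0.305% of all genes higher and 0.00802% lower, and 2 members, Kif4 and Cenpe, had an unadjusted p under 0.05 in edgeR. DESeq2 and limma called none either, nor did edgeR with the block, where 3.06% of all genes were higher and 3.24% lower. Changes ran from -0.14 (Aurkb) to 0.15 (Cenpe), with a median of 0.01, and 22 members were above 0. The groups did not overlap for 4 members that were higher (Bub1b, Cenpe, Kif4 and Kif20a, 11.1%, beside 5.11% of all genes) and for Cdk1, which was lower (2.78%, beside 5.09%).

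In DEM more members were above mock cells, by small amounts. Bub1b alone was called (2.78%), beside 2.61% of all genes higher and 1.11% lower. With the block 11 were called higher (30.6%) and Birc5 lower, beside 10.3% and 9.32% of all genes. The groups did not overlap for 8 members that were higher (22.2%, beside 10.3% of all genes) and for none that was lower (beside 9.35%). The median was 0.10 over members and 0.00 over all genes, with 28 members above 0 and 8 below. After Bub1b the calls with the block were Kif20a, Incenp, Kif23, Kif4, Kif2c, Ect2, Ttk, Espl1, Bub3 and Plk1. This comparison shares the mock DEM libraries with that of DEM and vehicle in mock cells, and replicates 2 and 3 of mock DEM were the 2 libraries with the lowest summed level of the members (4979 and 5156 CPM).

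The DEM effects in the 2 populations, which share no library, were alike in order and offset in level. Over the 36 members Pearson's r between them was 0.892 and Spearman's rho 0.845, as a description over genes measured in the same libraries, which are not independent replicates. Over all 12469 genes r was 0.642 and rho 0.757. That set includes genes near the count filter, whereas every member had at least 474 fragments in each library, and expression level was not matched. The sign was the same for 25 members, 18 of them below 0 and 7 above 0 in both. The effect in T-N2G cells was above that in mock cells for 33 members (91.7%), and for 50.3% of all genes. The exceptions were Cenpe, Spc25 and Birc5. Signs of members measured in the same libraries are not independent. Among the 67 other mitosis genes the difference was above 0 for 43 and below for 24, with a median of 0.02. For 46 DNA replication and G1/S genes these values were 29, 17 and 0.02. For 23 transcription factors of cell cycle genes they were 20, 3 and 0.07.

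**Figure D4:**
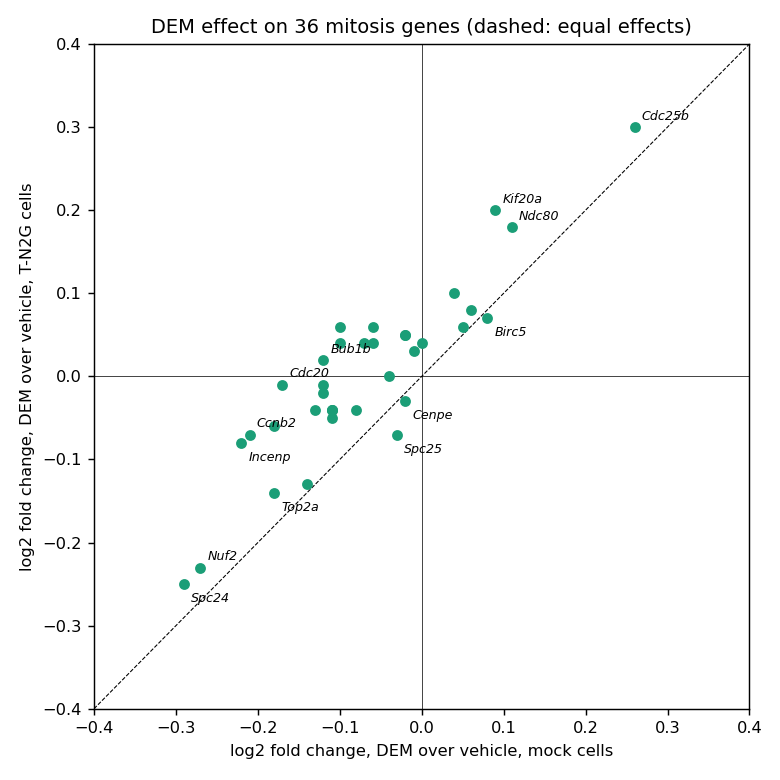
Each point is 1 of the 36 members, placed by its log2 fold change of DEM over vehicle in mock cells (x axis) and in T-N2G cells (y axis). The dashed line marks equal effects, and 33 of the 36 points lie above it.

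No member's difference was large enough to be called. The difference of the DEM effects (T-N2G minus mock) had a median of 0.06 over members and 0.00 over all genes, from -0.04 to 0.16. No member was called in edgeR without or with the block, beside 0.417% and 1.82% of all genes higher and 0.0160% and 0.978% lower. None had an unadjusted p under 0.05 without the block and 4 had one with it, and DESeq2 and limma called none. Bub1b, Cdc20, Kif20a and Incenp, whose values are given above, had the smallest unadjusted p-values.

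The 7 calls made without the block rested on changes of 1.15-fold to 1.22-fold and were sensitive to single libraries. The call of Nuf2 in mock cells was lost without mock vehicle replicate 1 or 2 or mock DEM replicate 2 or 3 (edgeR adjusted p = 0.0579 to 0.0826). That of Spc24 in mock cells was lost without mock vehicle replicate 2 or 3 or mock DEM replicate 1 or 3 (0.0592 to 0.0831), and that of Incenp without mock vehicle replicate 2 or 3 or any of the mock DEM replicates (0.0818 to 0.136). In T-N2G cells the call of Nuf2 was lost without vehicle replicate 1 or 3 or any DEM replicate (0.0641 to 0.0965), that of Spc24 without any vehicle replicate or DEM replicate 1 or 3 (0.0559 to 0.125), and that of Kif20a without vehicle replicate 1 or 2 or DEM replicate 1 (0.0512 to 0.0582). The call of Bub1b was lost without each library in turn other than T-N2G vehicle replicate 3 (0.0633 to 0.221). With the replicate block these 7 calls held without each of the 12 libraries, with adjusted p-values of at most 0.0142 (Incenp). The blocked count of 14 decreases in mock cells was 8 without mock vehicle replicate 2 or without mock DEM replicate 2, and 9 without mock DEM replicate 3. The blocked count of 11 in T-N2G against mock cells under DEM was 4 without mock DEM replicate 3 and 7 without mock DEM replicate 2, T-N2G DEM replicate 2 or T-N2G DEM replicate 3.

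Other genes of mitosis, 67 in number and chosen by function, held a few larger changes. In mock cells 6 fell and 2 rose with DEM (8.96% and 2.99%, beside 6.18% and 7.76% of all genes). In T-N2G cells 4 fell and 3 rose (5.97% and 4.48%, beside 7.55% and 10.1%), and the medians were -0.02 and 0.02. Apart from the decreases in mock cells, these shares were below those of all genes. Pbk, a mitotic kinase, fell by 0.46 ± 0.06 in both populations (edgeR adjusted p = 0.0015 in mock and 0.000684 in T-N2G cells), from 38.5 ± 1.48 to 28.0 ± 0.256 CPM in mock cells (SD, n = 3). Gtse1, a microtubule and p53 binding protein, fell by 0.59 in mock and 0.43 in T-N2G cells (adjusted p = 0.0101 and 0.0313). Haspin, the histone H3 kinase listed under its older symbol Gsg2, fell by 0.36 and 0.32 (adjusted p = 0.011 and 0.0159). Psrc1, a spindle protein, fell by 0.88 and 1.05 (adjusted p = 0.0368 and 0.0159). Fam64a fell by 0.48 in mock cells (adjusted p = 0.0125). Among those that rose, Mastl, the Greatwall kinase, rose by 0.43 in T-N2G cells (adjusted p = 0.0025), and Zwilch, a kinetochore protein, rose by 0.24 and 0.27 (adjusted p = 0.0409 and 0.0186). In T-N2G against mock cells Zwint, a kinetochore protein, was higher in DEM by 0.29 (adjusted p = 0.0316), and none was called in vehicle. With the replicate block the DEM counts were 16 lower and 10 higher in mock cells (23.9% and 14.9%, beside 21.9% and 20.9% of all genes) and 8 lower and 10 higher in T-N2G cells (11.9% and 14.9%, beside 22.2% and 22.8%). Between T-N2G and mock cells in DEM 4 were higher and 2 lower with the block (5.97% and 2.99%, beside 10.3% and 9.32%).

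Of the complexes that act on chromosomes, the 8 condensin subunits gave no call in any comparison without the block. The lowest p with DEM was that of Smc4 in mock cells (-0.21, edgeR adjusted p = 0.125) and of Ncapd2 in T-N2G cells (0.22, adjusted p = 0.0668). In each population 2 subunits had an unadjusted p under 0.05, and with the block 3 fell and 1 rose in mock cells (37.5% and 12.5%, beside 21.9% and 20.9% of all genes) and 1 fell and 2 rose in T-N2G cells (12.5% and 25.0%, beside 22.2% and 22.8%). Of 11 cohesin genes Smc3, a core subunit, fell with DEM by 0.20 in mock and 0.23 in T-N2G cells (edgeR adjusted p = 0.0387 and 0.0154). It was the 1 gene of the 11 called with DEM in each population (9.09%, beside 6.18% and 7.55% of all genes lower). With the block 2 fell and 2 rose in mock cells (18.2% each, beside 21.9% and 20.9%). In T-N2G cells 1 fell and 2 rose with it (9.09% and 18.2%, beside 22.2% and 22.8%).

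Of 15 genes of the anaphase promoting complex 3 fell and 2 rose with DEM in mock cells, where 6.18% of all genes were lower and 7.76% higher. In T-N2G cells 1 fell and 2 rose (6.67% and 13.3%, beside 7.55% and 10.1%). Cdc16 fell by 0.48 and 0.52 (edgeR adjusted p = 0.00118 and 0.000289). Anapc11, the catalytic RING subunit, rose by 0.49 and 0.50 (adjusted p = 0.00286 and 0.00159), and Anapc16 rose by 0.40 and 0.34 (adjusted p = 0.0017 and 0.00248). Cdc26 fell by 0.34 in mock cells (adjusted p = 0.00692). Each of these changes was larger than that of any of the 36 members.

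Among 23 transcription factors of cell cycle genes, the NF-Y subunits Nfyc and Nfya fell with DEM, by 0.29 and 0.27 in mock cells (edgeR adjusted p = 0.011 and 0.0352) and by 0.21 and 0.32 in T-N2G cells (adjusted p = 0.0371 and 0.0146). The DREAM components Rbl1 and Lin54 rose, by 0.29 and 0.36 in mock cells (adjusted p = 0.0418 and 0.0421) and by 0.37 and 0.44 in T-N2G cells (adjusted p = 0.0111 and 0.0149). Foxm1, named after its values were seen, rose by 0.22 in T-N2G cells (adjusted p = 0.0434), with a change of 0.15 in mock cells (adjusted p = 0.163). None was called between T-N2G and mock cells without the block. With it Rb1 was lower in vehicle (4.35% of the 23, beside 3.24% of all genes), and Lin9, Rbbp4 and E2f7 were higher in DEM (13.0%, beside 10.3%). For DEM against vehicle 5 fell and 6 rose with the block in mock cells (21.7% and 26.1%, beside 21.9% and 20.9% of all genes), and 6 fell and 9 rose in T-N2G cells (26.1% and 39.1%, beside 22.2% and 22.8%).

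Of 14 inhibitors, Cdkn1c, a Cdk inhibitor, was higher in T-N2G cells by 0.84 ± 0.08 in vehicle and 0.60 ± 0.09 in DEM (edgeR adjusted p = 0.000853 and 0.00142). It fell by 0.46 with DEM in T-N2G cells (adjusted p = 0.00342). The growth arrest genes Gadd45a and Gadd45b moved in opposite directions with DEM, by 0.61 and -0.69 in mock cells (adjusted p = 0.0114 and 0.012) and 0.52 and -0.61 in T-N2G cells (adjusted p = 0.0189 and 0.0154). Cdkn2b fell by 0.35 in mock cells (adjusted p = 0.00827), and Chek2, a checkpoint kinase, rose by 0.54 in T-N2G cells (adjusted p = 0.00594). Of the 14, 2 fell and 1 rose with DEM in mock cells (14.3% and 7.14%, beside 6.18% and 7.76% of all genes). In T-N2G cells 2 fell and 2 rose (14.3% each, beside 7.55% and 10.1%). With the block 6 fell and 3 rose in mock cells (42.9% and 21.4%, beside 21.9% and 20.9%). In T-N2G cells 4 fell and 4 rose with it (28.6% each, beside 22.2% and 22.8%).

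Among 46 DNA replication and G1/S genes 3 fell and 3 rose with DEM in mock cells (6.52% each, beside 6.18% and 7.76% of all genes), and 4 fell and 4 rose in T-N2G cells (8.70% each, beside 7.55% and 10.1%). These shares were near those of all genes, and the medians were -0.06 and -0.04. Rrm1, the large subunit of ribonucleotide reductase, fell by 0.41 and 0.26 (edgeR adjusted p = 0.00178 and 0.0118). Rpa1, which coats single-stranded DNA, rose by 0.31 in T-N2G cells (adjusted p = 0.00208) and was the 1 gene of the 46 called between T-N2G and mock cells in DEM without the block (0.40, adjusted p = 0.000612). With the block 6 were higher there, Rpa1, Rrm1, Mcm5, Mcm7, Pola1 and Pola2 (13.0%, beside 10.3% of all genes). For DEM against vehicle the blocked counts were 16 lower and 3 higher in mock cells (34.8% and 6.52%, beside 21.9% and 20.9%) and 14 lower and 6 higher in T-N2G cells (30.4% and 13.0%, beside 22.2% and 22.8%).

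The promoter letters did not divide the members clearly by their response. Members with the CHR letters had a median change of -0.10 with DEM in mock cells (23 members, from -0.21 to 0.26) and those without one of -0.05 (6 members, from -0.27 to 0.08), ranges that overlap. In T-N2G cells the medians were -0.01 and 0.01. Members with both kinds of letters had a median of -0.11 in mock cells (20 members, from -0.21 to 0.26). The other 9 had one of -0.02 (from -0.27 to 0.11), a wider gap with ranges that again overlap. In T-N2G cells these medians were -0.03 and 0.04. Nuf2, whose window printed above holds no match, was at the low end of the members without the letters in both populations. Ccnb2, Cdc20 and Top2a, with both kinds of letters, had changes of -0.21, -0.17 and -0.18 in mock cells and -0.07, -0.01 and -0.14 in T-N2G cells. In mock cells these 3 lay toward the low end of the 20 members with both kinds. Cdc25b, also with both kinds, was at the high end, with 0.26 in mock and 0.30 in T-N2G cells.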

How the data were processed

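The authors deposited, per the file headers, an estimated count of fragments for every gene and library, not scaled between libraries, and an FPKM value, scaled by transcript length and library size. The submitters' processing notes name Cuffdiff 2.1.1, TopHat2 2.0.8b, bcl2fastq 2.16.0.10 and the build mm9, with no annotation or strand setting. Per the labels' protocols the library kit was strand-specific. Of 291816 values 98.3% were whole (tolerance 0), and all member values were. The 2 other scaled columns per library were not used. Conditions and replicates were joined to titles by the key in the series text.

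Estimated counts were rounded to whole numbers and fitted by edgeR 4.0.16 under R 4.3.3 (TMM factors 0.980 to 1.028, filterByExpr with a minimum count of 10 and a total of 15). This kept 12469 genes and removed 11849. All 12 libraries entered 1 quasi-likelihood fit with 8 residual degrees of freedom (6 with the block). A 95% interval used the standard error, the log2 change divided by the square root of F. CPM used effective library sizes. The model was also run on simulated counts with independent libraries and changes larger than those called in the members. That run does not cover the replicate effect or changes as small as these.

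Replicate numbers were checked for pairing by the correlation of deviations from group means. It was 0.361 to 0.631 in 18 same-numbered pairs and -0.422 to -0.00363 in 36 others. All 12 of 12 libraries correlated best with their own number. Deviations from a group mean cancel within the group, so positive values in same-numbered pairs force negative ones in the other pairs. The negative range is therefore no separate evidence of pairing, and the best matches are not independent of the positive range. The libraries were paired by number in the fits with the block only. Calls, standard errors and intervals given without mention of the block leave this pairing out. What the replicate numbers stand for is not given in the sources used here.

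Alternatives were DESeq2 size factors, no filter, DESeq2 1.42.0, limma 3.58.1 on log2(FPKM + 1), 2 groups only, replicates 1 and 2 alone, the replicate block and leaving out each library. The last 2 kinds combined with the block were added after seeing the data. Members and lists were chosen with earlier results of these data known. Named members are the called ones (at most 6 a direction), the highest FPKM of each role and, without a call, the 4 smallest unadjusted p. Of other lists they are up to 4 called genes a comparison, or the smallest p. Marker lists were fibroblast, epithelial, endothelial, blood, skeletal muscle and Y-linked.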

Additional observations from a re-analysis of the deposited data

How the results depend on the processing

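Over 34 changes of single members called without or with the block and 32 alternatives each, 1088 values, 730 kept their side of the threshold, 53 lost the call, 305 gained it and 0 changed sign. The median change of the members for T-N2G against mock cells in vehicle, 0.01, was -0.02 with replicates 1 and 2 alone and the block, and the medians of the 5 comparisons moved by less than the spread between libraries under the other alternatives. In vehicle, and for the difference of the DEM effects, no member was called under any alternative. The pairing of libraries by replicate number moved counts most. With the replicate block, members called higher in T-N2G against mock cells under DEM went from 1 to 11 and lower from 0 to 1. With DEM in mock cells lower went from 3 to 14 and higher from 0 to 1, and in T-N2G cells lower went from 2 to 4 and higher from 1 to 3. The counts over all genes rose too. Replicates 1 and 2 alone with the block gave, in the same order, 4, 1, 11, 1, 4 and 3, and without it 0 in all 6. T-N2G against mock cells under DEM, higher, was 0 without a filter, 2 in DESeq2, 0 in limma and 0 with 2 groups only. DEM in mock cells, lower, was 4 with DESeq2 size factors, 2 without a filter, 6 in DESeq2, 5 in limma and 2 with 2 groups only. DEM in T-N2G cells, lower, was 1 without a filter and 0 with 2 groups only, and higher was 2 in DESeq2 and 0 with 2 groups only. Leaving out each library gave 0 to 1 and 0 to 0 for T-N2G against mock cells under DEM (higher, lower), 0 to 3 lower and 0 to 0 higher in mock, and 0 to 2 lower and 0 to 2 higher in T-N2G cells. With the replicate block these were 4 to 11 and 0 to 1, 8 to 17 and 1 to 1, and 4 to 4 and 3 to 4. The fit with 2 groups only was not run for the difference, which needs 4 groups. At this depth and with 3 libraries a group, the smallest change called without the block was 1.15-fold.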

Other observations

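Some members followed the replicate number in every group. Aurkb, Cenpa, Ndc80, Spc24, Spc25, Top2a and Kif11 were highest in replicate 2 of all 4 groups (7 of 36 members, 19.4%, beside 17.4% of all genes). Aurka, Bub3, Mad2l1, Birc5, Kif23, Prc1, Anln and Ect2 were lowest there in all 4 groups (8 members, 22.2%, beside 16.2% of all genes). Cdc20, Tpx2 and Prc1 were highest in replicate 3 of all 4 groups (8.33% of members, beside 7.74% of all genes). Cdc25c and Espl1 were lowest there (5.56%, beside 8.51%), and Cdc25b was lowest in replicate 1 (2.78%, beside 9.07%). These 3 shares were near or below those of all genes. The Ndc80 complex subunits Ndc80, Spc24 and Spc25 were among the 7 highest in replicate 2, a share of members near that of all genes. They were picked out after their values were seen, and the replicate in which they were lowest varied between groups. Nuf2, of the same complex, was highest in replicate 1 in 3 groups and in replicate 3 in 1 group.

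Cdkn1a, the p53-driven Cdk inhibitor, was looked at after its values were seen. It was at 145, 217 and 142 CPM in mock cells with vehicle, 95.5, 132 and 89.3 in mock DEM, 113, 185 and 87.3 in T-N2G vehicle and 78.3, 89.8 and 61.7 in T-N2G DEM, highest in replicate 2 of each group. Its change with DEM was -0.67 ± 0.26 in mock and -0.75 ± 0.27 in T-N2G cells (edgeR adjusted p = 0.109 and 0.0743, and 9.56e-06 and 4.99e-06 with the replicate block). Mki67, a proliferation marker, is also given outside the rule for named genes. It was at 667, 775 and 709 CPM in mock cells with vehicle, against 822, 729 and 752 in mock DEM, which overlap (change 0.10 ± 0.07, edgeR adjusted p = 0.376). In T-N2G cells Mki67 was at 743, 801 and 777 CPM with vehicle and 789, 786 and 767 with DEM, which overlap too.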
